A study of Rattus norvegicus with 48 samples.

Results

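The circadian clock genes of the rat liver were examined as 6 genes, taken by their Ensembl identifiers: Arntl (ENSRNOG00000014448), Clock (ENSRNOG00000002175), Per1 (ENSRNOG00000007387), Per2 (ENSRNOG00000020254), Nr1d1 (ENSRNOG00000009329) and Dbp (ENSRNOG00000021027). They were 6 of the 32662 genes counted, and all 6 were among the 12756 genes tested, those that reached 1 CPM (the reads of a gene, scaled to all reads on genes) in 5 or more of 8 rats in some diet and week group. Liver RNA came from 48 male Wistar rats (RjHan:WI), obtained at 6 weeks of age, kept in pairs under a 12-h light/dark cycle and examined after 4, 8 or 12 weeks on diet. At each week 8 rats had eaten an L-amino acid-defined diet that lacked choline and held 1% cholesterol (CDAA), which serves as a nutritional model of steatohepatitis, and 8 had eaten the choline-supplemented control diet (CSAA). As a share of energy, CDAA also held more fat and less carbohydrate than CSAA, so the diets differed in more than choline and cholesterol. Neither the hour at which a liver was taken nor the cage of a rat is given in the labels, so that week on diet and hour of sampling cannot be told apart here.

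The clock is a feedback loop that runs in nearly every cell. ARNTL, also called BMAL1, pairs with CLOCK and switches on genes that carry an E-box in their regulatory DNA, among them Per1, Per2, Nr1d1 and Dbp. PER1 and PER2 return to the nucleus and hold the pair back, while NR1D1 (REV-ERB alpha) represses Arntl through the RORE, the binding element that it shares with the activating ROR receptors. DBP is an output factor that binds the D-box, and in the liver it drives enzymes of metabolism and detoxification. In the liver of an animal kept in light and dark, Arntl RNA therefore peaks at about the opposite time of day to Nr1d1 and Dbp, Per2 follows Nr1d1 and Dbp, and Clock RNA cycles weakly. Per1 also answers acutely to hormones such as glucocorticoids.

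The bases before the start sites were searched for letters of the elements named above. They were read from RefSeq (assembly GRCr8, whose coordinates do not apply to the build of the counts), which lists Arntl as Bmal1. Windows of 250 bases were searched on both strands for the E-box CACGTG, its variant CACGTT, the D-box TTATGTAA or TTACGTAA and the RORE core TAGGTCA. These are the windows of Arntl (chr1:176766078-176766327, + strand), Per2 (chr9:99496994-99497243, - strand) and the first of the listed starts of Nr1d1 (chr10:84231813-84232062, - strand), with the letters found in capitals:
Arntl: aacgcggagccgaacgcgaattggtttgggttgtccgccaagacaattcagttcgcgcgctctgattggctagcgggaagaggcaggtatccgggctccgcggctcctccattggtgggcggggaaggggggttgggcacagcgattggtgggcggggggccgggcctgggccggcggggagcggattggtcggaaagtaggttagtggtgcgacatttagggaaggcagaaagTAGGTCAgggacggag
Per2: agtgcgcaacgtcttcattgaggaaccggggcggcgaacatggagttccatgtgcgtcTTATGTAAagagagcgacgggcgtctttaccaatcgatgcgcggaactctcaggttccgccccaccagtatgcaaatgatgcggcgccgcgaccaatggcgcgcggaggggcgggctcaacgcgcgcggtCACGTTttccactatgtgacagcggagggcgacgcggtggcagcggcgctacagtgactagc
Nr1d1: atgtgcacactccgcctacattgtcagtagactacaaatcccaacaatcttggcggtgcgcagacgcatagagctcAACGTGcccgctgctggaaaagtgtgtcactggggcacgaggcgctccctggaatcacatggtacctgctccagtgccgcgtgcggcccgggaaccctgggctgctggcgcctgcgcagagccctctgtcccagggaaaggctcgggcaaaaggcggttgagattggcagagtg
The RORE core of Arntl begins at base -16 from the start site, and 2.26% of 33469 such windows hold these letters. Per2 holds the E-box variant at -62 (4.07% of windows) and a D-box at -192 (0.932% of windows), and the first window of Nr1d1 holds the E-box variant on the other strand at -174. The canonical E-box, found in 5.59% of windows, lies at -191 of another start of Nr1d1 (chr10:84229630-84229655, - strand), shown here with 10 bases on either side.
Nr1d1, other start: tcagctcccaCACGTGtctggggatc
None of these letters was found in the windows of Clock, Per1 and Dbp. A match describes the sequence alone, and elements farther from the start sites were not searched.

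Between 13619274 and 22284359 reads per animal fell on genes. TMM factors, which correct for library composition, averaged 0.808, 0.848 and 0.777 on CSAA and 1.07, 1.29 and 1.37 on CDAA at weeks 4, 8 and 12, so that values on both diets depend on this scaling more than values within a diet. The libraries of 4 animals stood apart from their groups in an earlier look at these data: 303 (CDAA, week 4), 504 (CSAA, week 8), 908 (CSAA, week 12) and 1102 (CDAA, week 12). Each had the TMM factor of its group that lay nearest to the other diet, 0.827, 1.007, 0.862 and 1.27. Results that depended on them are given with and without them. Tests were edgeR's quasi-likelihood test with Benjamini-Hochberg adjustment over 12756 genes. A gene was called at an adjusted p under 0.01 with a fold change of at least 2, and it passed at an adjusted p under 0.01 at any fold. Levels are TMM-scaled CPM, given as lowest, median and highest of 8 animals. No symbol table matched the other Ensembl identifiers, so other clock genes and marker genes of liver cells were not analysed here, and the tissue label was not checked against markers. In bulk tissue, a smaller share of a cell type and less RNA per cell cannot be told apart.

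**Figure D1:**
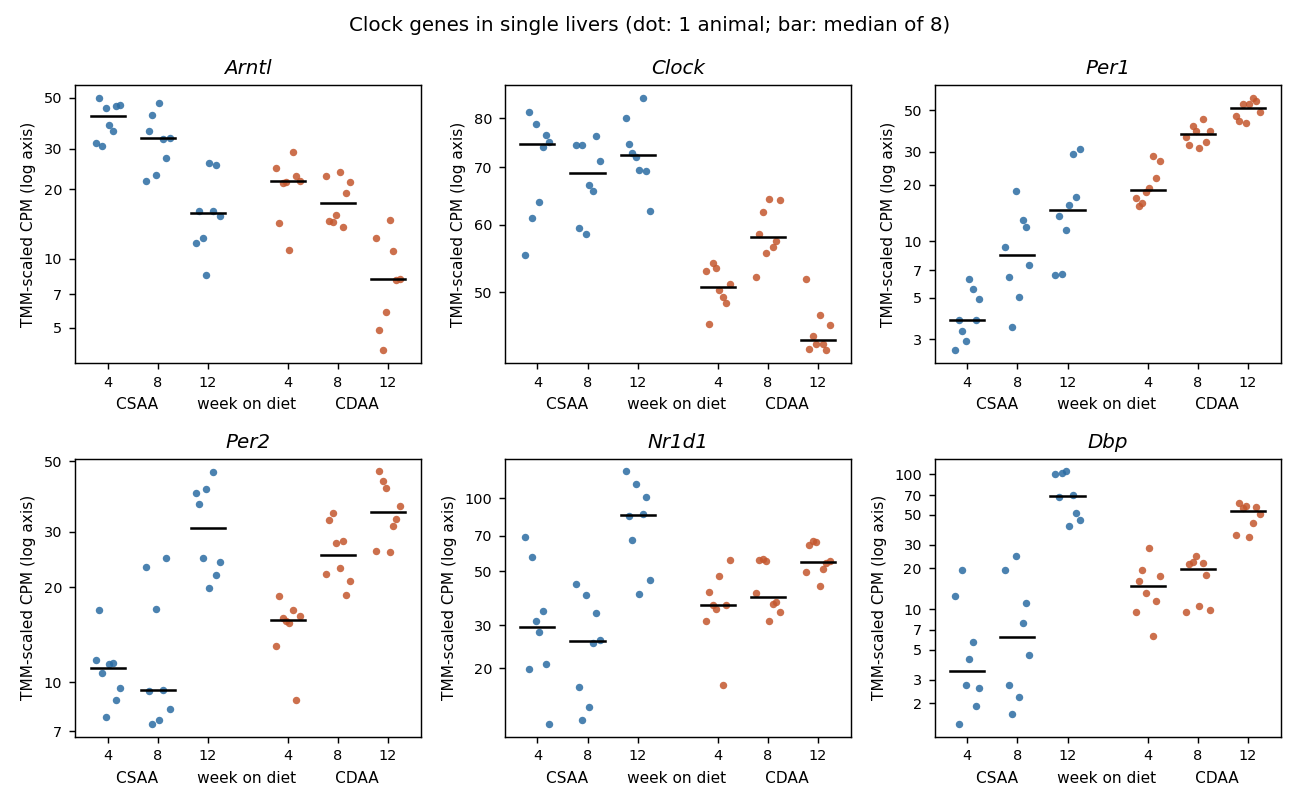
TMM-scaled CPM on a log axis for the 6 clock genes in each of 48 livers, grouped by diet and week (dots, 1 animal each; bars, median of 8). On both diets Arntl was lowest and Dbp highest at week 12, and Per1 was higher on CDAA than on CSAA at every week.

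The question behind the week comparisons was whether differences between weeks on both diets took the form that a change in hour of sampling would give. On the control diet the clock genes other than Per1 were at similar levels at weeks 4 and 8. Those other than Clock were at different levels at week 12. At week 12 Arntl was lower, Per2, Nr1d1 and Dbp were higher, and Clock did not pass. Of the 6 genes, 0 were called and 0 passed at week 8 against week 4, where edgeR called 0.047% of all genes and 0.196% passed. At an unadjusted p under 0.05 in edgeR's test, Per1 alone differed at that step, and DESeq2 called it. At week 12 against week 8, 4 of 6 were called, against 2.78% of all genes, and 5 of 6 passed, against 30.3%. At week 12 against week 4, 5 of 6 were called, against 2.68% of all genes, and 5 of 6 passed, against 28% of all genes.

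Dbp, the output factor, differed most. On CSAA its CPM was 1.402, 3.50 and 19.4 at week 4. It was 1.66, 6.23 and 24.9 at week 8, and 41.2, 68.8 and 105 at week 12. Each of the 8 livers of week 12 was thus above every liver of the earlier weeks. Dbp was one of the 8.62% of all genes without overlap at week 12 against week 8, and of the 5.28% without overlap against week 4. The log2 fold change of week 12 over week 8 was 2.96 (SE 0.43, 7.79-fold), with an adjusted p of 2.28e-07 (edgeR). It was 3.49 (SE 0.44, 11.3-fold) over week 4, with an adjusted p of 2.01e-08. Within the earlier weeks Dbp was also the most uneven of the 6, with a 13.8-fold range among the rats of week 4 and a 14.98-fold range among those of week 8. The range at week 12 was 2.56-fold.

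Nr1d1, the repressor of Arntl, had a CPM of 11.8, 29.7 and 69.4 at week 4 on CSAA. At week 8 it was 12.2, 25.8 and 44.2, and at week 12 it was 40.4, 85.4 and 129. The groups of weeks 8 and 12 overlapped only between the highest livers of week 8 and the lowest of week 12. The log2 fold change of week 12 over week 8 was 1.65 (SE 0.27, adjusted p = 2.51e-06, edgeR), and over week 4 it was 1.29 (SE 0.27, adjusted p = 0.000131).

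Per2, which encodes a repressor of the ARNTL and CLOCK pair, was at 7.77, 11.1 and 16.96 CPM on CSAA at week 4. It was at 7.38, 9.46 and 24.8 CPM at week 8 and at 19.8, 30.7 and 46.3 CPM at week 12. Week 12 did not overlap with week 4, and a few livers of week 8 reached into its range. The log2 fold change was 1.25 (SE 0.22, adjusted p = 6.56e-06, edgeR) over week 8, where it was 0.99 with the length trend removed, and 1.52 (SE 0.22, adjusted p = 2.82e-07) over week 4.

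Per1, the other repressor of this pair, had a higher median at each later week. Its CPM on CSAA was 2.62, 3.79 and 6.28 at week 4. At week 8 it was 3.50, 8.41 and 18.5, and at week 12 it was 6.64, 14.6 and 30.9. Neighbouring weeks overlapped, and weeks 4 and 12 did not. The log2 fold change was 1.18 (SE 0.27) for week 8 over week 4, with an adjusted p of 0.0138 (edgeR) that missed the threshold, but it was called when animal 503 or 505 was left out. It was 0.81 (SE 0.25, adjusted p = 0.00739) for week 12 over week 8, which passed without reaching 2-fold. This pass was lost in 8 of 16 fits without 1 animal, and with limma-voom (adjusted p = 0.0131), RLE factors (0.0132), library size alone (0.0469), the length trend removed (0.0404) and RPKM (0.0602). For week 12 over week 4 it was 1.99 (SE 0.27, adjusted p = 6.26e-08).

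Arntl, the activator, moved the other way. On CSAA its CPM was 31.0, 41.8 and 50.2 at week 4. It was 21.7, 33.3 and 47.3 at week 8 and 8.51, 15.8 and 25.9 at week 12. No liver of week 12 reached the lowest of week 4, while the ranges of weeks 8 and 12 met. Arntl fell by 1.00 on the log2 scale from week 8 to week 12 (SE 0.22, adjusted p = 0.000202, edgeR). This lies at the limit of 2-fold, so that it was called in 6 of 16 fits without 1 animal, while it passed in all 16. From week 4 to week 12 it fell by 1.30 (SE 0.22, adjusted p = 4.96e-06). Clock, the partner of Arntl, had medians of 74.5, 68.97 and 72.5 CPM at the 3 weeks with overlapping ranges, and its log2 fold change of week 12 over week 4 was 0.05 (SE 0.07, adjusted p = 0.592).

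On CDAA the same 3 weeks gave 0 of 6 called at week 8 against week 4, against 5.02% of all genes, and 3 of 6 passed, against 38.3%. At week 12 against week 8, 1 of 6 was called, against 1.43% of all genes, and 2 of 6 passed, against 2.78%. At week 12 against week 4, 4 of 6 were called, against 10.6% of all genes, and 4 of 6 passed, against 49.3%. In the comparisons with week 4, the share among clock genes thus stands against a higher background than on CSAA. At week 12 against week 8 the background was lower than on CSAA, where 2.78% of all genes were called and 30.3% passed. Arntl was lower and Per1, Per2 and Dbp were higher at week 12 than at week 4, as on CSAA.

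Arntl on CDAA had a CPM of 10.9, 21.7 and 29.1 at week 4. It had 13.7, 17.5 and 23.9 at week 8, and 3.99, 8.13 and 14.7 at week 12. Week 12 was lowest, and its highest livers lay within the ranges of the earlier weeks. Arntl fell by 1.09 on the log2 scale from week 8 to week 12 (SE 0.22, adjusted p = 0.00105, edgeR) and by 1.28 from week 4 to week 12 (SE 0.22, adjusted p = 3e-06). The first of these was called in 15 of 16 fits without 1 animal, and without animal 1103 it was -0.98. It was also not called without the 4 animals that stood apart (-0.998, adjusted p = 0.00143). With library size alone, the values were -0.98 and -0.92, under the limit of 2-fold, and the second was -0.97 from RPKM.

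Dbp on CDAA was at 6.36, 14.7 and 28.6 CPM at week 4 and at 9.46, 19.7 and 24.7 CPM at week 8. At week 12 it was at 34.1, 53.4 and 61.0 CPM. All 8 livers of week 12 were above all 16 of the earlier weeks, with 1.38% of all genes without overlap at week 12 against week 8 and 27.6% at week 12 against week 4. The log2 fold change over week 8 was 1.52 (SE 0.40), and its adjusted p of 0.0131 (edgeR) missed the threshold. It was called without the 4 animals that stood apart (1.48, adjusted p = 0.0065) and by limma-voom. Over week 4 it was 1.70 (SE 0.40, adjusted p = 0.000348).

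Per1 and Per2 on CDAA passed at week 8 against week 4 and not at week 12 against week 8; the difference between these steps was not tested. Per1 had a CPM of 15.3, 18.8 and 28.6 at week 4, of 31.5, 37.3 and 45.0 at week 8 and of 42.8, 51.5 and 58.3 at week 12. Per2 had a CPM of 8.81, 15.8 and 18.8 at week 4, of 18.8, 25.2 and 34.3 at week 8 and of 25.9, 34.5 and 46.5 at week 12. For both genes, week 4 lay below the later weeks without overlap, and weeks 8 and 12 overlapped. Of all genes, 19.4% were without overlap at week 8 against week 4 and 27.6% at week 12 against week 4. The log2 fold changes of week 8 over week 4 were 0.87 for Per1 (SE 0.23, adjusted p = 0.00203, edgeR) and 0.78 for Per2 (SE 0.21, adjusted p = 0.00197), which passed without being called. With the length trend removed they were 0.64 (adjusted p = 0.0219) and 0.39 (adjusted p = 0.107), and with library size alone and from RPKM both genes were called. Those of week 12 over week 8 were 0.45 for Per1 (SE 0.23, adjusted p = 0.277) and 0.45 for Per2 (SE 0.21, adjusted p = 0.205).

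Nr1d1 on CDAA was at 17.05, 36.4 and 55.5 CPM at week 4, at 31.3, 39.1 and 56.5 CPM at week 8 and at 43.7, 54.7 and 66.6 CPM at week 12. All neighbouring weeks overlapped, and its log2 fold change of week 12 over week 4 was 0.59 (SE 0.26, adjusted p = 0.0505, edgeR). This difference passed, without being called, with library size alone (0.94, adjusted p = 0.00314) and from RPKM (0.995, adjusted p = 0.00216, limma). Clock had medians of 50.7, 57.9 and 43.9 CPM at the 3 weeks. It fell by 0.38 from week 8 to week 12 (SE 0.07, adjusted p = 0.000329), with no overlap between these groups, and did not pass from RPKM (-0.27, adjusted p = 0.0265). Its rise from week 4 to week 8 of 0.22 (SE 0.07, adjusted p = 0.00846) turned to -0.29 when a trend with gene length was removed.

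**Figure D2:**
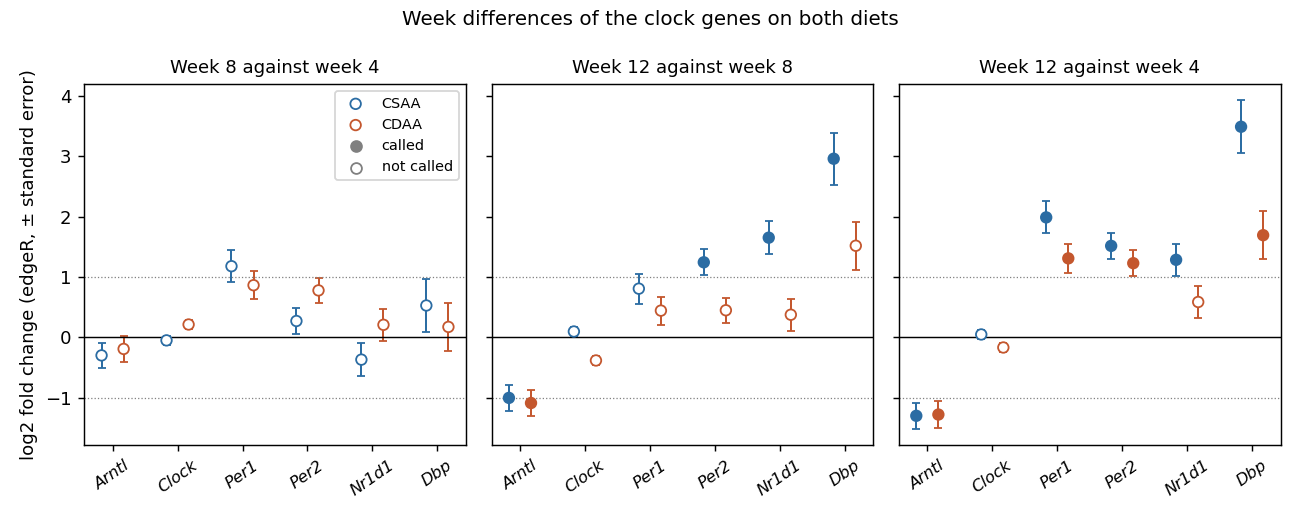
Log2 fold changes of the 6 clock genes between weeks on CSAA (blue) and CDAA (orange), with standard errors from edgeR; filled symbols were called, dotted lines mark a 2-fold change. At week 12 against week 4, Arntl was at -1.30 on CSAA and -1.28 on CDAA, and Dbp was at 3.49 and 1.70.

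Whether the week differences were alike on both diets was tested as the interaction of diet and week. The signs of the log2 fold changes were the same on both diets for 5 of 6 genes at week 12 against week 8 and at week 12 against week 4, with Clock as the exception, and for 4 of 6 at week 8 against week 4. For Arntl the difference between diets was -0.09 (SE 0.31, adjusted p = 0.861, edgeR) at week 12 against week 8 and 0.02 (SE 0.31, adjusted p = 0.968) at week 12 against week 4. For Nr1d1 the step from week 8 to week 12 was smaller on CDAA by -1.28 on the log2 scale (SE 0.38, adjusted p = 0.00704). This was called in 18 of 32 fits without 1 animal and was not called with RLE factors, with library size alone, with the length trend removed or from RPKM. Clock differed by -0.48 at the same step (SE 0.10, adjusted p = 0.000158) and passed, but not with library size alone (adjusted p = 0.0382), with the length trend removed (-0.26, adjusted p = 0.0917) or from RPKM (adjusted p = 0.0386). For Dbp the differences of -1.44 (SE 0.57, adjusted p = 0.0461) at week 12 against week 8 and -1.80 (SE 0.57, adjusted p = 0.0128) at week 12 against week 4 missed the threshold. Without the 4 animals that stood apart, the first was called with -1.93 (adjusted p = 0.00711, edgeR). With all animals limma-voom called the first as well (-1.90, adjusted p = 0.00347). The second was called by limma-voom and in 4 of 32 fits without 1 animal, those without 101, 103, 306 or 908. Among all genes, 4.25% were called and 20.8% passed for the step from week 4 to week 8, where 0 of 6 clock genes passed, and 5 of 6 had an unadjusted p over 0.05. From week 8 to week 12, 4.01% were called and 21.2% passed, against 1 and 2 of the 6. From week 4 to week 12, 5.04% were called and 22.1% passed, against 0 of the 6, with Clock and Dbp at an unadjusted p under 0.05.

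The ratio of Arntl to Dbp reads does not depend on how a library is scaled, and it sets the activator against the output gene that peaks at the opposite time. It was taken as log2 of the reads with 0.5 added to each, and no test was made on it. On CSAA the lowest, median and highest values were 0.68, 3.59 and 5.13 at week 4. They were -0.12, 2.47 and 4.64 at week 8 and -3.62, -2.09 and -0.67 at week 12. Arntl reads outnumbered Dbp reads in 8, 7 and 0 of 8 livers. On CDAA the values were -1.39, 0.50 and 2.19 at week 4. They were -0.68, -0.22 and 1.28 at week 8 and -3.80, -2.73 and -1.21 at week 12, with 6, 4 and 0 of 8 livers above 0. Week 12 did not overlap with week 8 on either diet. The mean of week 12 minus week 8 was -4.52 on CSAA (pooled SD 1.496) and -2.76 on CDAA (pooled SD 0.94). The means of both diets differed by -2.70 at week 4 (pooled SD 1.348) and by -2.23 at week 8 (pooled SD 1.449). At week 12 they differed by -0.47 (pooled SD 1.007). The ranges of the diets overlapped at each week.

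**Figure D3:**
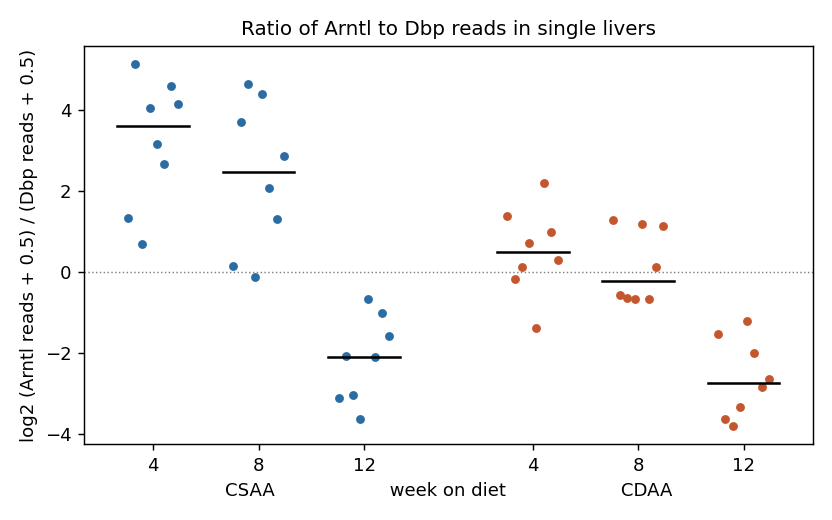
Log2 ratio of Arntl to Dbp reads (0.5 added to each) in each of 48 livers by diet and week (dots, 1 animal each; bars, median of 8). All 16 livers of week 12 lie below 0, with medians of -2.09 on CSAA and -2.73 on CDAA.

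The order of the 6 genes by level was compared per gene length, in the authors' RPKM. In the median liver on CSAA at week 4 it ran from Arntl (11.6 RPKM) and Nr1d1 (10.5 RPKM) over Clock (6.80 RPKM), Dbp (2.39 RPKM) and Per2 (1.58 RPKM) to Per1 (0.716 RPKM). Arntl and Nr1d1 did not differ beyond their spread, since the livers ranged from 8.76 to 12.8 RPKM for Arntl and from 3.98 to 24.7 RPKM for Nr1d1. At week 12 on CSAA, Dbp (44.0 RPKM) and Nr1d1 (28.8 RPKM) led, and Clock (6.41 RPKM), Arntl (4.28 RPKM), Per2 (4.25 RPKM) and Per1 (2.69 RPKM) followed. On CDAA at week 12 Dbp (58.4 RPKM) and Nr1d1 (31.8 RPKM) led as well, with Per1 (17.3 RPKM) next and Arntl (3.70 RPKM) last. Per1 thus stood last on CSAA and in place 3 on CDAA at this week.

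The diet itself was the comparison of the study, CDAA against the control of the same week. Per1 was higher on CDAA at all 3 weeks, with no overlap between the diets at any week, as the levels above show. Of all genes, 13.3%, 43% and 43.5% were without overlap at weeks 4, 8 and 12. Its log2 fold change was 2.30 (SE 0.26, 4.92-fold, adjusted p = 6.14e-10, edgeR) at week 4, 1.98 (SE 0.25, adjusted p = 1.59e-09) at week 8 and 1.62 (SE 0.24, adjusted p = 6.82e-08) at week 12. It was called at all 3 weeks in each alternative and in each fit without 1 animal. Of the 6 genes, 2 were called at week 4, against 19.9% of all genes, 1 at week 8, against 30.2%, and 1 at week 12, against 30.7%. At any fold, 4, 4 and 3 of 6 passed, against 54.2%, 67.4% and 69.3% of all genes. With so many genes called, these counts are not read as a result about the list.

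With TMM scaling, Arntl was lower on CDAA at each week. It fell by 0.96 on the log2 scale (SE 0.21, adjusted p = 0.000139, edgeR) at week 4, by 0.85 (SE 0.21, adjusted p = 0.000452) at week 8 and by 0.94 (SE 0.22, adjusted p = 0.000188) at week 12, and it passed at each without reaching 2-fold. With library size alone it passed at none of the weeks, with -0.54, -0.24 and -0.11 (adjusted p = 0.0248, 0.301 and 0.661), nor from RPKM, with -0.59, -0.23 and -0.15. With the length trend removed it was called at all 3, with -1.08, -1.10 and -1.03. The diets did not overlap at week 4 and did at weeks 8 and 12. It was called at week 4 without 101, 103 or 306, and at week 12 without 904, 1101 or 1105. Dbp was higher on CDAA at week 4, by 1.24 (SE 0.42, adjusted p = 0.00995), although the ranges of the diets overlapped and it was called in 5 of 16 fits without 1 animal. At week 8 the difference was 0.88 (SE 0.41, adjusted p = 0.0507), and at week 12 it was -0.56 (SE 0.39, adjusted p = 0.185). With all animals, Dbp was called at week 8 by limma-voom (1.398, adjusted p = 0.00275) and with the length trend removed (1.241). It was also called there with library size alone (1.435) and from RPKM (1.989). By DESeq2, with RLE factors and without the filter on low counts, Dbp did not pass at week 8. Per2 passed at week 8 with 0.95 (SE 0.21, adjusted p = 0.000111) and was called there without 501, 504, 507 or 707, while it did not pass with the length trend removed (0.48, adjusted p = 0.0285). Per2 was also called there by limma-voom (1.09), with library size alone (1.545) and from RPKM (1.64). Nr1d1 did not pass at any week in edgeR's test with TMM scaling, with values of 0.13, 0.71 and -0.57. At week 8 it passed by limma-voom (0.82, adjusted p = 0.00682) and DESeq2 (0.73, adjusted p = 0.00762) and was called with library size alone (1.30) and from RPKM (1.41). Without the 4 animals that stood apart, Dbp was 1.19 (adjusted p = 0.0111, edgeR) at week 4 and 1.33 (adjusted p = 0.00454) at week 8, where Per2 was called with 1.05 (adjusted p = 5.61e-05) and Nr1d1 passed with 0.86 (adjusted p = 0.00482). Leaving out 504 alone also brought Dbp past the thresholds at week 8. Clock was lower by 0.48, 0.22 and 0.70 with TMM scaling, but with library size alone it was higher at week 8, by 0.39, and at week 12, by 0.13. With library size alone the median log2 fold change of all genes was 0.39, 0.65 and 0.73 at the 3 weeks. With TMM scaling it was -0.019, 0.051 and -0.086. The direction of Clock between diets at weeks 8 and 12 thus depends on the scaling.

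**Figure D4:**
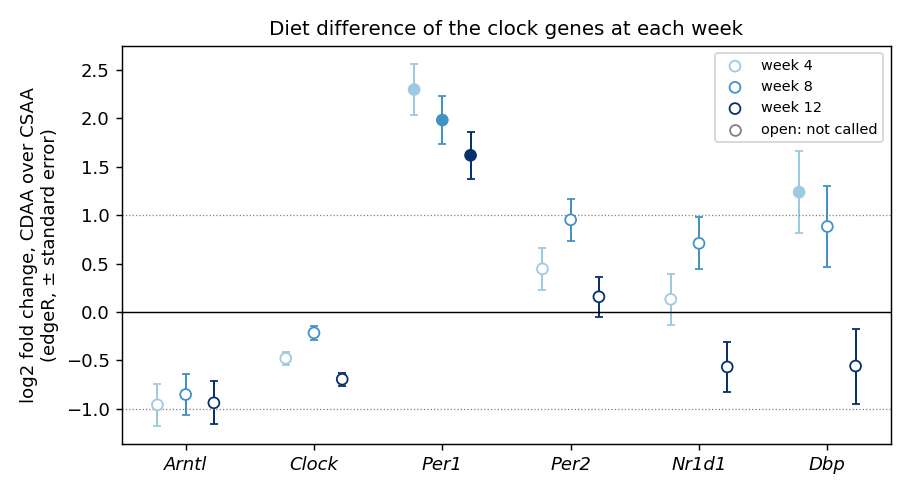
Log2 fold changes of the 6 clock genes on CDAA over CSAA at weeks 4, 8 and 12, with standard errors from edgeR; filled symbols were called, dotted lines mark a 2-fold change. Per1 was at 2.30, 1.98 and 1.62, and Dbp was at 1.24, 0.88 and -0.56; with library size alone, signs turned for Dbp, Nr1d1 and Clock at week 12 and for Clock at week 8.

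Rats of the same diet and week also differed from each other in these genes. The biological coefficient of variation from edgeR was 57.5% for Dbp, 36.5% for Nr1d1, 33.5% for Per1, 29.6% for Arntl and 29.1% for Per2, against a median of 16.1% over all genes. Clock was the exception with 9.79%. Animals 905 and 1105, both of week 12, had the highest Arntl and the lowest Dbp, Nr1d1 and Per2 of their groups. Animal 306 of CDAA at week 4 had the highest Arntl and the lowest Dbp and Nr1d1 of its group. Its Per2 lay above the group mean, by 0.196 on the log2 scale. Animals 103, 305 and 904 had the lowest Arntl and the highest Dbp of their groups. Animal 102 of CSAA at week 4 had the highest Arntl and the lowest Dbp, but also the highest Per2.

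To describe this, the group mean was subtracted from log2 CPM and each of the 15 pairs of genes was correlated over the 48 animals, with two-sided p-values from 100000 permutations of animals within groups. The p-values treat cage mates as independent. Arntl and Dbp deviated in opposite directions, with Pearson r = -0.703 (adjusted p = 5e-05, Benjamini-Hochberg over 15 pairs) and Spearman rho = -0.806 (adjusted p = 3.75e-05). For both, the raw p of 1e-05 is the smallest that these permutations can give. Without the 2 animals farthest from the median of Arntl, r was -0.725. Within the single groups of 8 rats it lay between -0.976 and -0.828, lower in each than over all animals. Arntl was also opposite to Nr1d1 (r = -0.621, raw p = 1e-05, adjusted p = 5e-05, rho = -0.694, permutation test) and to Per2 (r = -0.61, raw p = 2e-05, adjusted p = 7.5e-05, rho = -0.64), with a negative r in 6 of 6 groups. Within single groups r lay between -0.966 and -0.483 for Nr1d1, and between -0.96 and -0.044, thus near 0, for Per2.

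Nr1d1 and Dbp deviated in the same direction among rats of a group. Their r was 0.838 and their rho 0.829 (raw p = 1e-05, adjusted p = 5e-05 for r, permutation test), and r was positive in 6 of 6 groups. Per2 deviated with Dbp (r = 0.543, rho = 0.573, raw p = 0.00132, adjusted p = 0.0033) and with Nr1d1 (r = 0.518, rho = 0.56, raw p = 0.00097, adjusted p = 0.00291), in 5 of 6 groups each. The 9 pairs with Clock or Per1 did not pass, with adjusted p of at least 0.187 in the permutation test. For Arntl and Per1, r was 0.035 over all animals, and it lay between -0.786 and 0.452 within single groups. Within groups r of Per1 lay between -0.707 and 0.896 with Dbp, and between -0.498 and 0.852 with Nr1d1. The pooled values of Per1 thus cover groups of either sign. The 6 pairs that passed kept their sign and passed without the 4 animals named above, with library size alone and with RPKM.

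**Figure D5:**
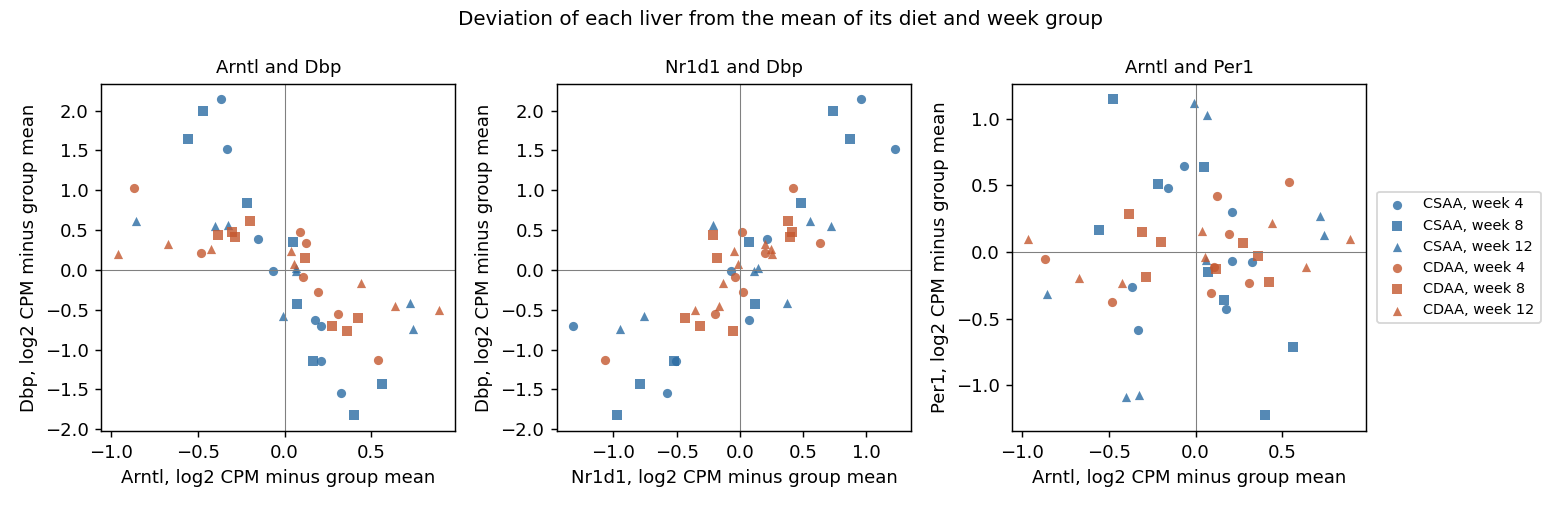
Deviation of each liver from the mean log2 CPM of its diet and week group, for Arntl and Dbp (left), Nr1d1 and Dbp (middle) and Arntl and Per1 (right), with 1 symbol for each of 48 animals. The pooled r was -0.703, 0.838 and 0.035.

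Against all other genes tested, these pairs were near the ends of the order. Ranked by r with Nr1d1 over the 48 deviations, Dbp was first of 12755 genes, and Nr1d1 was second for Dbp. Arntl had the second lowest r of all genes with Dbp, and Dbp the third lowest with Arntl. The highest r with Dbp was that of ENSRNOG00000018413 (0.862), which also had the lowest r with Arntl (-0.711), and the highest r with Arntl was that of ENSRNOG00000005109 (0.727). The lowest r with Dbp was that of ENSRNOG00000000503 (-0.751). These ranks share the libraries and their depth and are given with no p. Deviations among rats of a group thus had the same signs for Arntl, Per2, Nr1d1 and Dbp as the differences of week 12 from the earlier weeks. On CDAA, however, Nr1d1 passed in neither of these differences in edgeR's test, and Per2 and Dbp did not pass over week 8. Per1 was called at week 12 against week 4 on both diets, but over all animals its deviations did not go with those of Arntl (r = 0.035). Within single groups this r had either sign. The part of the hour of sampling in the deviations or in the week differences was not tested.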

How the data were processed

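The authors mapped single-end reads of poly(A) RNA to Rnor_6.0 with STAR and assigned them to Ensembl genes with featureCounts. The deposited counts are not normalized. The authors also deposited RPKM values per gene with 3 decimals. Per the labels, kits kept strand, and 7 libraries were pooled for sequencing. Of the tables, 0 columns of per-sample values were unused.

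Counts of all 48 animals were fitted with edgeR 4.0.16 in R 4.3.3 (TMM, quasi-likelihood, 1 coefficient per diet and week, Benjamini-Hochberg adjustment). Alternatives were limma-voom (limma 3.58.1, the method of the study), DESeq2 1.42.0 without independent filtering, RLE factors, library size alone, no filter on low counts, removal of a gene length trend, RPKM as log2(RPKM + 0.1) in limma, leaving out each animal and leaving out 303, 504, 908 and 1102. Ratios, correlations and figures were made in Python 3.11.15.

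On simulated counts of 12756 genes for CSAA week 12 against week 8, 200 genes were changed. At a log2 fold change of 1, edgeR called 77 of them and 152 passed at any fold, since a true change at the limit is called only when its estimate lies above it. It called 177 at 1.5 and 186 at 2, with 0 false calls at each size. limma-voom called 73, 172 and 182. The size was first set to 1.5 and was raised to 2 when fewer genes were recovered than had been asked for; all 3 sizes are therefore given, and no minimum was kept.

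Depth was 13619274 to 22284359 reads on genes per animal, and the lowest count of a clock gene was 20 reads (Dbp), so that the spread between animals limits most values. P-values of the group comparisons set a difference against the spread between single rats of a group, and they treat cage mates as independent. The 6 genes, the lists and the 4 animals were chosen with earlier results of these data known, and symbols were paired with identifiers by that choice. All 6 were to be named, and beside them the genes most like Arntl and Dbp; of those only 3 are named, since identifiers had no symbols. Lists of other clock genes and of cell markers were not used here for the same reason. No batch, cage or hour is labelled, and none was modelled.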

Additional observations from a re-analysis of the deposited data

Results flagged for a closer look

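Per2 in animal 102 of the CSAA group at week 4 was at 16.96 CPM, and the next highest of the 8 livers was at 11.81, a gap of 0.56 of the whole range. Of 42 sets of 8 values examined, 1 stood out in this way, where chance gives about 2.1. The diet difference of Nr1d1 at week 12 minus that at week 8 was -1.277 on the log2 scale, and that of Clock was -0.479. Both passed the test of the difference itself (edgeR's quasi-likelihood test, adjusted p = 0.00704 and 0.000158), and both were lost with library size alone, with the length trend removed and from RPKM, and the first also with RLE factors.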

How the results depend on the processing

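The calls at week 12 against week 4 on CSAA (5 of 6 genes) and the diet difference of Per1 held under all alternatives. The replicate numbers of the groups name animals only. Numbers of clock genes called changed as follows. For the diet at week 4 (2 called), 1 was called with RLE factors, without the filter and without the 4 animals, 3 with the length trend removed, and 1 to 3 when 1 animal was left out. For the diet at week 8 (1 called), 3 were called by limma-voom, without the 4 animals and with the length trend removed, 4 with library size alone and from RPKM, and 1 to 3 without 1 animal. For the diet at week 12 (1 called), 3 were called with the length trend removed, and 1 to 2 without 1 animal. For week 8 against week 4 on CSAA (0 called), 1 was called by DESeq2 and with the length trend removed, and 0 to 1 without 1 animal. For week 12 against week 8 on CSAA (4 called), 3 were called without the filter and with the length trend removed, and 3 to 4 without 1 animal. On CDAA, week 8 against week 4 (0 called) gave 2 with library size alone and from RPKM, and week 12 against week 8 (1 called) gave 2 by limma-voom, 0 with library size alone and 0 to 1 without 1 animal; without the 4 animals the 1 gene called was Dbp in place of Arntl. Week 12 against week 4 on CDAA (4 called) gave 3 with library size alone and from RPKM, without Arntl, and 3 with the length trend removed, without Per2. For the diet difference at week 12 minus week 8 (1 called), 2 were called by limma-voom and without the 4 animals, 0 with RLE factors, library size alone, the length trend removed or RPKM, and 0 to 1 without 1 animal. At week 12 minus week 4 (0 called), limma-voom called 1, and 0 to 1 were called without 1 animal. The cause was not tested.

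With library size alone, signs turned for the diet difference of Clock at week 8 (0.394) and week 12 (0.125), of Nr1d1 (0.244) and Dbp (0.257) at week 12, for Clock between weeks on CSAA (0.022, -0.024 and -0.002) and at week 12 against week 4 on CDAA (0.19), and for Arntl at week 8 against week 4 on CDAA (0.067). From RPKM they turned for the diet difference of Clock at week 8 (0.402) and week 12 (0.107), of Nr1d1 (0.337) and Dbp (0.324) at week 12, for Arntl at week 8 against week 4 (0.10) and Clock at week 12 against week 4 (0.167) on CDAA. With the length trend removed they turned for the diet difference of Per2 at week 12 (-0.095) and for Clock at week 12 against week 8 (-0.184) and week 4 (-0.232) on CSAA and at week 8 against week 4 on CDAA (-0.289). Without the 4 animals, Clock at week 8 against week 4 on CSAA was at 0.004. The correlation of Clock and Per1, -0.131 as reported, was 0.092 without the 4 animals, 0.193 with library size alone and 0.158 from RPKM. All 27 alternative values of the Arntl to Dbp ratio lay within 1 SD of those reported. These came from 2 reads added in place of 0.5, from RPKM and from leaving out the 4 animals. RPKM divides reads by a gene length and a library total, so it could hardly move differences of this ratio. Adding 2 reads moved them little, and removal of the length trend was not applied to the ratio.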
